A study of Mus musculus with 6 samples.

Results

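Scavenger receptors are the surface and lysosomal receptors with which macrophages take up modified lipoproteins, dying cells, haemoglobin and glycoproteins. The genes examined were 9, chosen by symbol from a list of Msr1, Cd36, Scarb1, Scarb2, Cd68, Cd163, Cd5l, Mrc1 and Olr1, among 16111 genes in the deposited table, and each symbol matched a single row. Their transcripts were measured by RNA sequencing in cultured mouse fetal liver macrophages of 2 genotypes, wild-type (WT) and deficient in Ahrr (AhRR-/-), with 3 libraries each. Ahrr encodes the aryl hydrocarbon receptor repressor, which competes with the ligand-activated transcription factor AhR, and the comparison asks which transcripts differ without it. All cells were of the strain C57BL/6 RCC, came from fetal livers at E13.5, spent 5 weeks in medium with 2% GM-CSF and were collected as the non-adherent fraction, so adherent cells were not measured. How the Ahrr allele was made is not given in the sources used here. The labels number the samples 1 to 3 in each genotype and do not say whether the cultures ran side by side, so p-values measure the spread between these libraries.

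Scavenger receptors are grouped into classes by structure, not by ancestry, and each binds a broad range of mostly polyanionic ligands. Class A receptors such as the product of Msr1 and class B receptors such as CD36 carry oxidized lipoproteins into foam cells, whereas the C-type lectin encoded by Mrc1 takes up mannosylated glycoproteins and is a marker of alveolar and alternatively activated macrophages. GM-CSF is the growth factor on which alveolar macrophages depend, and cultured fetal liver macrophages kept in it are used as a model of those cells. In tissue, CD163 and CD5L mark resident macrophages such as Kupffer cells of the liver and red pulp macrophages of the spleen.

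Library totals lay between 3556106 counts in Ahrr-deficient replicate 1 and 41668336 counts in Ahrr-deficient replicate 2, so low transcripts were measured least precisely in the former. WT replicate 2 stood apart by a ribosomal RNA gene, CT010467.1, with 5.28% of its counts against at most 0.0679% in the others. The targeted gene had 101, 27 and 38 counts in WT replicates 1, 2 and 3 and 8, 107 and 12 counts in the Ahrr-deficient ones, a log2 fold change of -1.21 (SE 0.26, adjusted p by edgeR 0.0151). Reads of Ahrr thus remained in every Ahrr-deficient library. Of 9 macrophage markers, among them Cd68, all were tested, and Csf1r and Cd14 were lower. The summed normalized count of the 9 ran from 258550 to 284849 in WT and from 158477 to 238386 in Ahrr-deficient libraries. Most of that sum was Lyz2 (log2 fold change -0.46, adjusted p by edgeR 0.0926). Of the mast cell, eosinophil and B cell lists 0 of 7, 0 of 4 and 0 of 5 genes were among the 16111 genes analysed, which each have at least 10 counts over the 6 libraries. The erythroid, hepatocyte and endothelial lists summed to at most 16.0 normalized counts in a library, from 2 of 7, 2 of 7 and 5 of 7 genes, and their defining genes Alb and Hba-a1 were not analysed here.

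Transcripts of 3 scavenger receptor genes, Mrc1, Msr1 and Olr1, were higher in Ahrr-deficient macrophages, by 1.50-fold to 1.73-fold. Those of 2 genes were lower, Scarb2 by 1.48-fold and Cd5l by 9.14-fold. The other 3 tested genes, Cd68, Cd36 and Scarb1, did not pass the threshold, and Cd163 had too few counts to be tested. In such bulk samples, fewer cells of a type and less RNA per cell cannot be told apart. Thus 5 of 8 tested genes were called at an adjusted p by edgeR under 0.05, where 19.6% of all 11408 tested genes were called (9.62% higher and 9.95% lower). The 2 genotypes did not overlap in normalized count for 6 of the 8, against 38.6% of all tested genes. The median log2 fold change was -0.14 over the 8 genes and 0.01 over all tested genes. The median of its absolute size was 0.57, against 0.22.

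**Figure D1:**
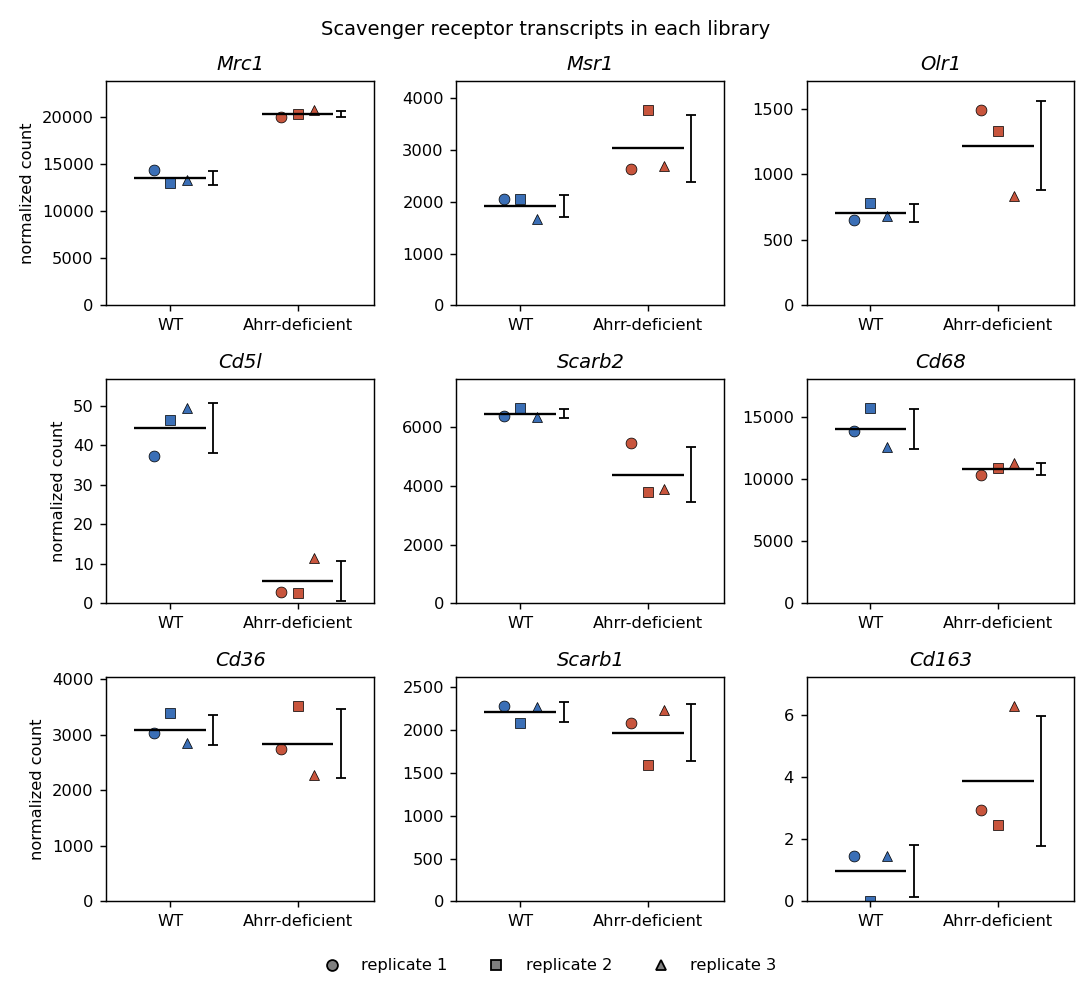
Normalized count (vertical axis, from 0 in each panel) of the 9 scavenger receptor genes in each library of WT (blue) and Ahrr-deficient (red) cells; marker shapes give the replicate number, horizontal lines the mean and bars the SD of 3 libraries. The genotypes are apart for Mrc1, Msr1, Olr1, Cd5l, Scarb2 and Cd68 and overlap for Cd36 and Scarb1; Cd163 never exceeded 6.28 normalized counts.

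Mrc1 (ENSMUSG00000026712.3, chromosome 2, 14229392 to 14332057, GRCm38), the macrophage mannose receptor, had 14422, 12981 and 13355 normalized counts in WT replicates 1, 2 and 3, where a normalized count is the read count divided by the size factor of its library. It had 20078, 20311 and 20737 in the Ahrr-deficient replicates. Every Ahrr-deficient library was above every WT library, and the Ahrr-deficient values were close together, with a coefficient of variation of 1.64%. The means were 13586 ± 748 and 20375 ± 334 (SD, n = 3). The log2 fold change was 0.59 (SE 0.11, 95% interval 0.35 to 0.82, adjusted p by edgeR 0.00766). This call held in all 17 alternative analyses, with log2 fold changes from 0.48 to 0.63. The adjusted p over them reached 0.0468, close to the threshold of 0.05.

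Msr1 (ENSMUSG00000025044.16, chromosome 8, 39581685 to 39642673) encodes the class A receptor for acetylated and oxidized low-density lipoprotein. Normalized counts of Msr1 were 2048, 2047 and 1676 in WT and 2631, 3766 and 2691 in Ahrr-deficient replicates 1, 2 and 3. All Ahrr-deficient values were higher than all WT values, with replicate 2 well above its group. The log2 fold change was 0.66 (SE 0.15, 95% interval 0.32 to 1.00, adjusted p by edgeR 0.0185). The call was lost when any WT library was left out, with log2 fold changes of 0.56 to 0.71 and adjusted p by edgeR of 0.0536 to 0.0671. Leaving out WT replicate 1, 2 or 3 called 6.07%, 8.15% or 9.35% of all tested genes. The Msr1 call was also lost with offsets for GC content (0.50, adjusted p by edgeR 0.0713), in a fit that called 17.7% of all tested genes. The longest Msr1 transcript has 38.4% GC, and log2 fold changes of all tested genes fell with GC content (Spearman -0.28 across genes). The longest Cd36 transcript also has 38.4% GC, and its log2 fold change was -0.12. The part of GC content in the Msr1 difference was not tested.

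Olr1 (ENSMUSG00000030162.14, chromosome 6, 129485244 to 129507165) encodes the lectin-like receptor LOX-1, a class E receptor for oxidized low-density lipoprotein. It had 651, 780 and 682 normalized counts in WT and 1490, 1333 and 837 in Ahrr-deficient replicates 1, 2 and 3. The groups did not overlap, but Ahrr-deficient replicate 3 lay much closer to WT than the other two. Its log2 fold change of 0.79 (SE 0.19, 95% interval 0.36 to 1.22) was the largest of the 3 rises, with an adjusted p by edgeR of 0.0225. Without any one WT library the adjusted p by edgeR was between 0.0548 and 0.0995, and without Ahrr-deficient replicate 2 it was 0.0857 at a log2 fold change of 0.70.

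Cd5l (ENSMUSG00000015854.7, chromosome 3, 87357881 to 87371073) encodes a secreted member of the scavenger receptor cysteine-rich family, also called apoptosis inhibitor of macrophage. It was a minor transcript, with 77, 25 and 34 counts in WT against 1, 11 and 11 in the Ahrr-deficient replicates, in the order 1, 2 and 3. As normalized counts these were 37.3, 46.3 and 49.3 in WT and 2.93, 2.69 and 11.5 in Ahrr-deficient cells. The WT mean of 44.3 ± 6.3 stood against 5.71 ± 5.03 in Ahrr-deficient cells (SD, n = 3). The log2 fold change was -3.19 (SE 0.45, 95% interval -4.21 to -2.17, adjusted p by edgeR 0.00361). The size rested on few counts in Ahrr-deficient cells, 23 in all: it was -2.24 without Ahrr-deficient replicate 2 and -3.96 without replicate 3, and each of these fits kept the call.

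Scarb2 (ENSMUSG00000029426.8, chromosome 5, 92441314 to 92506833) encodes LIMP-2, the class B receptor of the lysosomal membrane. Its normalized counts were 6373, 6631 and 6349 in WT replicates 1, 2 and 3 and 5455, 3784 and 3878 in the Ahrr-deficient ones. Ahrr-deficient replicate 1, the shallowest library, was between WT and the other Ahrr-deficient libraries, and WT varied by only 2.43% (coefficient of variation). The log2 fold change was -0.56 (SE 0.15, 95% interval -0.90 to -0.22, adjusted p by edgeR 0.0313). Without Ahrr-deficient replicate 1 it was -0.76 (adjusted p by edgeR 6.67e-04). Leaving out any other library lost the call, with log2 fold changes from -0.58 to -0.47 and adjusted p by edgeR from 0.0758 to 0.108. The fits without Ahrr-deficient replicate 1, 2 or 3 called 32.6%, 8.31% or 10.3% of all tested genes.

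Cd68 (ENSMUSG00000018774.13, chromosome 11, 69664213 to 69666153), the class D receptor macrosialin of late endosomes and lysosomes, had 13848, 15717 and 12584 normalized counts in WT replicates 1, 2 and 3. It had 10327, 10903 and 11273 in the Ahrr-deficient ones. All Ahrr-deficient values were below all WT values, yet the log2 fold change of -0.37 (SE 0.12, 95% interval -0.64 to -0.11) missed the threshold at an adjusted p by edgeR of 0.0559. With upper-quartile scaling, DESeq2 and limma-voom the adjusted p was 0.0437, 0.0077 and 0.0273 at similar sizes of -0.41, -0.38 and -0.38, in analyses that called 19.6%, 17.5% and 24.1% of the genes tested in each. These were the only 3 of 17 alternatives that called Cd68, and 0 of 6 fits with a library left out did so. Over the 17 its log2 fold change ran from -0.45 to -0.25, with an adjusted p of up to 0.163.

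**Figure D2:**
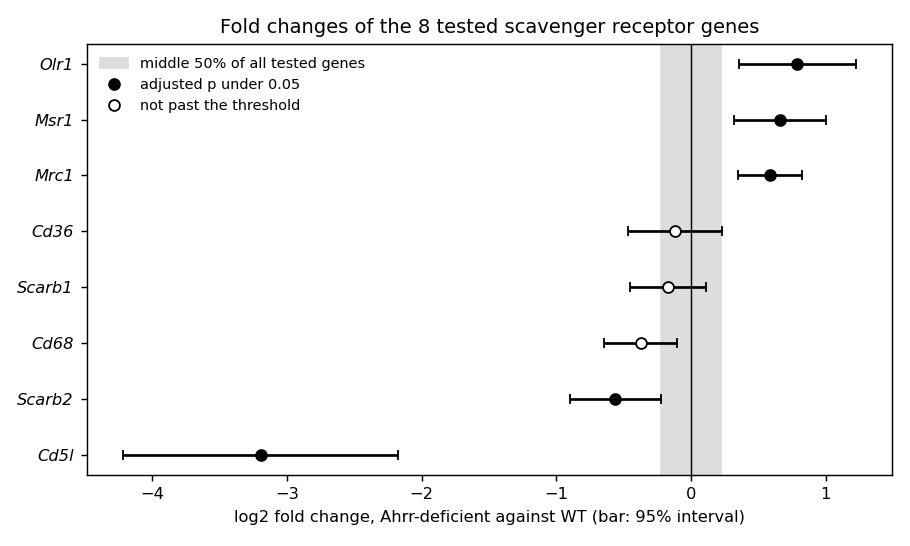
Log2 fold change (horizontal axis, Ahrr-deficient against WT) of the 8 tested scavenger receptor genes with 95% intervals; filled points passed an adjusted p by edgeR of 0.05 and the grey band holds the middle of all tested genes, from -0.23 to 0.22. Olr1, Msr1 and Mrc1 lie to the right of the band, Cd36 and Scarb1 have point estimates inside it, and Cd5l lies far to the left at -3.19.

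The windows around the start sites of 4 called genes are shown because 2 of them, Mrc1 and Olr1, rose and 2, Cd5l and Scarb2, fell. Each runs 5′ to 3′ on the strand of the gene from 250 bases before the start to 50 bases after it, from RefSeq on GRCm38.p6, and capitals mark matches to the motifs searched. Of the 9 genes 7 had a window in that set, and Msr1 and Scarb1 are named without one.
Mrc1 promoter (chr2:14229164-14229463, plus strand): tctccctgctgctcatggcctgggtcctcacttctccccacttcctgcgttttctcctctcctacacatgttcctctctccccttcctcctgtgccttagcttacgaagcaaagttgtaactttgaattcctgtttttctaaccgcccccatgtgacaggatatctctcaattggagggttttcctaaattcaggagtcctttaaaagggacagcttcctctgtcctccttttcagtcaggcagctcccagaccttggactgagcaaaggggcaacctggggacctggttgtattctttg
Olr1 promoter (chr6:129507116-129507415, minus strand): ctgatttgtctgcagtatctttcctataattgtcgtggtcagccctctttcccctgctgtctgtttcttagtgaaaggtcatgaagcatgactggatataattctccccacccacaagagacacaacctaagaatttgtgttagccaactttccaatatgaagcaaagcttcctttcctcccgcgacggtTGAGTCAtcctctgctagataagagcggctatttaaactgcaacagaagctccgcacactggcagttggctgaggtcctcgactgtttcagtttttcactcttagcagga
Cd5l promoter (chr3:87357631-87357930, plus strand): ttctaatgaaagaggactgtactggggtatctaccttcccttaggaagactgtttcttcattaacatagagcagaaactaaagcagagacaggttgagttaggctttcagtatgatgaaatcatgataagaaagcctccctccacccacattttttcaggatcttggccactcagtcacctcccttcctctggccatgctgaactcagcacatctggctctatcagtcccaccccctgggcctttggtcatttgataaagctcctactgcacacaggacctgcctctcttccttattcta
Scarb2 promoter (chr5:92505608-92505907, minus strand): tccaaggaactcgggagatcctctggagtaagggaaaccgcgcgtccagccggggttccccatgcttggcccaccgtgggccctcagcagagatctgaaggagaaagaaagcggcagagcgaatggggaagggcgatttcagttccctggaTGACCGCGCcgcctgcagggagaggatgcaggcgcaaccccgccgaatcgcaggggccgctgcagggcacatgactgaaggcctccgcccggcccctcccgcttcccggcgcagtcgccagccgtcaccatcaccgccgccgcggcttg
The motifs searched on both strands were GCGTG, the core to which AhR and its repressor bind with ARNT; TGANTCA, bound by AP-1; GAGGAAGT, bound by the macrophage factor PU.1; TGACNNNGC, the core of the antioxidant response element; and AGGTCA repeated with any base between the copies, bound by nuclear receptors such as PPARG. The core GCGTG was in 0 of the 7 windows, against 32.4% of 32851 windows in the set. The AP-1 motif was in 2 of the 7, against 7.81%: Olr1, which rose, had TGAGTCA at position -60 from the start, and Cd68, whose values were lower, had the same letters at -149 and -24. Scarb2 had 1 match to TGACNNNGC at -99, a motif held by 12.4% of windows, and its window was the richest in G and C at 67.3%. GAGGAAGT and the repeat of AGGTCA were in 0 of the 7, against 3.20% and 0.0396% of windows. TGANTCA and TGACNNNGC begin with the same letters, and no match of one overlapped a match of the other. A match to these letters is a description of the window, not a measured binding site.

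Cd36 (ENSMUSG00000002944.15, chromosome 5, 17781690 to 17888801), the class B receptor that takes up long-chain fatty acids and oxidized lipoprotein, had 3037, 3380 and 2839 normalized counts in WT and 2742, 3509 and 2266 in Ahrr-deficient replicates 1, 2 and 3. The highest and the lowest of the 6 values were both from Ahrr-deficient libraries, and the groups overlapped. The log2 fold change was -0.12 (SE 0.15, adjusted p by edgeR 0.626), and its 95% interval of -0.47 to 0.23 leaves room for a modest change in either direction. Cd36 therefore gave no detectable difference beside the changes of Msr1 and Olr1, which bind overlapping ligands, though these differences between genes were not tested.

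Scarb1 (ENSMUSG00000037936.15, chromosome 5, 125277087 to 125341094), the class B receptor SR-BI for high-density lipoprotein, had 2280, 2080 and 2272 normalized counts in WT. It had 2084, 1594 and 2231 in Ahrr-deficient replicates 1, 2 and 3. The groups overlapped, and Ahrr-deficient replicate 2 alone lay below the WT range. The log2 fold change was -0.17 (SE 0.12, 95% interval -0.45 to 0.11, adjusted p by edgeR 0.355). Of the 3 class B genes, all on chromosome 5, only Scarb2 passed the threshold.

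Cd163 (ENSMUSG00000008845.9, chromosome 6, 124304656 to 124330527), the haemoglobin-haptoglobin receptor, was barely detected. It had 3, 0 and 1 counts in WT against 1, 10 and 6 in the Ahrr-deficient replicates, which gave 1.45, 0 and 1.45 against 2.93, 2.45 and 6.28 normalized counts. Only Ahrr-deficient replicates 2 and 3 exceeded the detection floor of 3 counts, which held 41668336 and 9888711 counts in all. It did not pass the filter on low counts and so has no test beside the other genes. In a fit without that filter its log2 fold change was 1.50 (adjusted p by edgeR 0.336), a value that rests on 4 counts in WT and 17 in Ahrr-deficient cells. Both genotypes thus had little RNA of Cd163 and of Cd5l, and that of Cd5l was lowest in Ahrr-deficient libraries. This describes these genes alone and says nothing of other markers of resident liver and spleen macrophages.

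Levels between genes were compared per kilobase of exon. In WT the order was Cd68 with 11177 ± 1254 normalized counts per kilobase (SD, n = 3), Mrc1 with 2132 ± 117, Scarb2 with 1026 ± 25, Cd36 with 859 ± 76, Msr1 with 303 ± 34, Scarb1 with 260 ± 13, Olr1 with 197 ± 19, Cd5l with 21.8 ± 3.1 and Cd163 with 0.177. Msr1 and Scarb1 overlapped and cannot be ordered, and the other neighbours were apart. In Ahrr-deficient cells Cd36 (791 ± 175) came before Scarb2 (696 ± 149), followed by Msr1 (477 ± 101), Olr1 (342 ± 95) and Scarb1 (232 ± 39). Cd36 and Scarb2 overlapped there, as did Msr1 and Olr1 and then Olr1 and Scarb1, whereas on this scale Scarb2 was above Msr1 in every library. Dividing by the longest transcript instead of all exons placed Scarb1 (715) above Msr1 (529) in WT, since its annotated exons add up to 8.50 kilobases against 3.09 for that transcript. In Ahrr-deficient cells the same divisor gave Scarb2 931, Cd36 835, Msr1 833 and Scarb1 637, so the order of Scarb2 and Cd36 turned and Msr1 stood level with Cd36. The order of these genes thus depends on the length used. Cd68 ranked 30 of all tested genes in WT and 26 in Ahrr-deficient cells on the per-exon scale, and Mrc1 moved from rank 174 to rank 86. Of the per-kilobase total of the 9 genes, Cd68 held 68.3% to 72.1% in WT and 58.4% to 62.3% in Ahrr-deficient libraries. The share of Mrc1 was 11.7% to 14.3% in WT and 21.8% to 22.6% in Ahrr-deficient libraries.

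**Figure D3:**
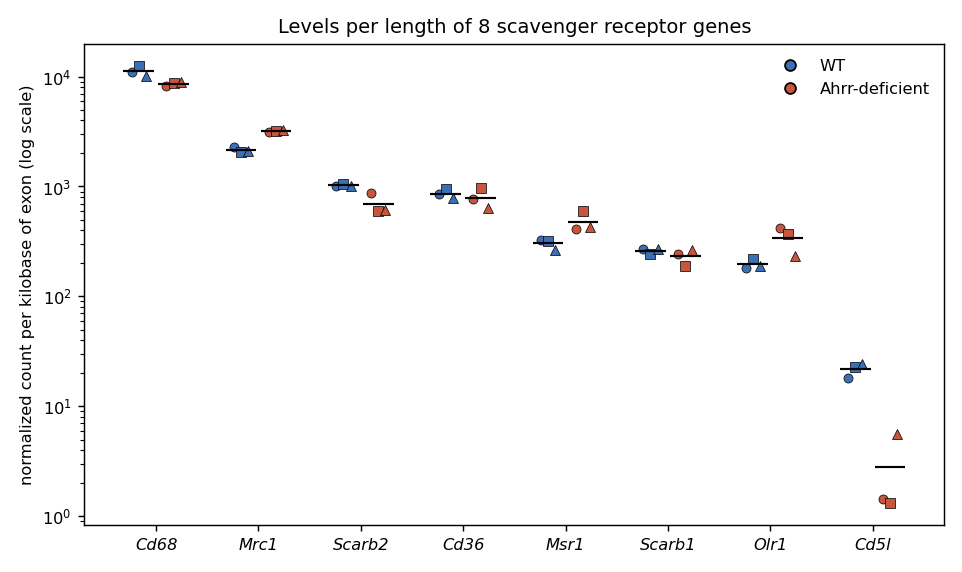
Normalized count per kilobase of exon (vertical axis, log scale) of 8 scavenger receptor genes in each library, ordered by the WT mean; blue is WT, red is Ahrr-deficient, shapes give replicates 1 (circle), 2 (square) and 3 (triangle) and lines the means. Cd68 and Mrc1 lie above the others in all libraries and Cd5l below them; Cd163, with a value of 0 in WT replicate 2, is not drawn.

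The genes whose log2 CPM values followed each tested gene most closely over the 6 libraries were sought among 10027 others with a mean of at least 50 counts, as a description. For Mrc1 they were Glyr1 and Diaph1 (Pearson r 0.998 for both), and Diaph1 was itself higher (log2 fold change 0.50, adjusted p by edgeR 0.00721). Msr1 was followed by Cdv3 and by Cd9 (0.995 for both), a tetraspanin of macrophage membranes, and Olr1 by Chd1 (0.998) and Slc38a6 (0.997). The closest to Scarb2 were Iqcb1 and Sash1 (0.999 for both), each lower with log2 fold changes of -0.91 and -0.67 (adjusted p by edgeR 0.0184 and 0.0180). Cd68 was followed by Pafah2 (0.997) and Tmem109 (0.995), Cd5l by Hectd3 (0.996) and Anks1 (0.995), Scarb1 by Kif21b (0.982) and Cd36 by Dnajc5 (0.985) and Chic2 (0.969). All points share the 6 libraries and the split by genotype, which raises r for any pair of genes that differ between the groups.

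The wider family and the genes that act with it were read from 7 lists. Over all of them 90 genes were tested, 10 were higher and 24 lower, or 37.8% called beside the 19.6% of all tested genes, with a median log2 fold change of -0.13. The lists were drawn up with earlier results of these data known, so these shares are no independent evidence.

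Among other scavenger receptors 3 of 10 tested genes were lower, 0 were higher and 7 did not pass, with a median log2 fold change of -0.56. At an unadjusted p under 0.05 in edgeR 1 gene was higher and 6 were lower, and DESeq2 and limma-voom also called 0 higher. Colec12, a class A collectin receptor, fell from 1028 ± 121 to 359 ± 179 normalized counts (SD, n = 3; log2 fold change -1.62, adjusted p by edgeR 0.00634). Scarf2, a class F receptor, fell from 668 ± 116 to 323 ± 59 (-1.04, adjusted p by edgeR 0.00452), and Stab1, the class H receptor stabilin-1, from 94.1 ± 21.3 to 36.4 ± 20.7 (-1.06, adjusted p by edgeR 0.0437). Marco, a class A receptor of alveolar macrophages, had 7467, 7128 and 7302 in WT and 3573, 6073 and 5744 in Ahrr-deficient replicates 1, 2 and 3, groups that did not overlap but missed the threshold (-0.51, adjusted p by edgeR 0.0765). Clec7a (dectin-1) had a log2 fold change of -0.08 (adjusted p by edgeR 0.767). The rise of Msr1 thus had no called counterpart among the other receptors of the family in this list.

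Endocytic and phagocytic lectins, to which Mrc1 is related, had 0 higher and 5 lower of 12 tested genes, with a median log2 fold change of -0.39. At an unadjusted p under 0.05 in edgeR 0 were higher and 6 lower, and 0 were called higher by DESeq2 or limma-voom. Clec4a1 fell from 29.2 ± 3.1 to 7.98 ± 8.35 normalized counts (SD, n = 3; log2 fold change -2.85, adjusted p by edgeR 0.00805), Clec4d, a receptor for mycobacterial glycolipid, by a log2 fold change of -1.84 (adjusted p by edgeR 0.00460) and Clec10a, a galactose-type lectin, by -0.95 (adjusted p by edgeR 0.00239). Siglec1 and Clec4e were the remaining genes called lower. Ly75 (DEC-205), of the same receptor family as Mrc1, had a log2 fold change of 0.17 (adjusted p by edgeR 0.295). The direction of Mrc1 was therefore not that of the called lectins.

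Of 14 tested apoptotic cell receptors and bridging proteins 1 was higher, 3 were lower and 10 did not pass (median log2 fold change -0.27). Dock1, part of the engulfment machinery, was higher (0.49, adjusted p by edgeR 0.00588). Thbs1, the CD36 ligand thrombospondin-1, fell from 1298 ± 204 to 503 ± 183 normalized counts (SD, n = 3; log2 fold change -1.44, adjusted p by edgeR 0.00637). Cd300a, a phosphatidylserine receptor, was lower by -1.10 (adjusted p by edgeR 0.0078) and Itgb5 by -0.67 (adjusted p by edgeR 0.00595). Mertk and Axl had log2 fold changes of -0.39 and -0.29 (adjusted p by edgeR 0.120 and 0.146).

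In the list of lipoprotein and fatty acid handling after uptake 2 of 13 tested genes were higher, 5 lower and 6 did not pass (median log2 fold change -0.37). Pltp, phospholipid transfer protein, fell from 2795 ± 290 to 473 ± 344 normalized counts (SD, n = 3; log2 fold change -2.71, adjusted p by edgeR 0.00519). Plin2, the lipid droplet coat protein, fell from 21218 ± 1018 to 8572 ± 1488 (-1.31, adjusted p by edgeR 0.00158) and Abca1, a cholesterol exporter, by -1.38 (adjusted p by edgeR 0.0281). Lpl, lipoprotein lipase, rose from 60417 ± 1099 to 86753 ± 8195 (0.52, adjusted p by edgeR 0.0173), and Abcg1 was higher by 0.37 (adjusted p by edgeR 0.0497). Genes for the breakdown and export of lipoprotein cholesterol in lysosomes were mixed: Lipa (0.03, adjusted p by edgeR 0.885) and Npc1 (0.05, adjusted p by edgeR 0.816) did not pass, and Npc2 was lower (-0.37, adjusted p by edgeR 0.0437).

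For haem and iron handling after haemoglobin uptake, the route that begins with CD163, 1 of 11 tested genes was higher, 3 were lower and 7 did not pass (median log2 fold change -0.17). Tfrc, the transferrin receptor, rose by 0.71 (adjusted p by edgeR 0.00645). Slc11a1, the phagosomal metal transporter, fell from 246 ± 11 to 75.2 ± 12.1 normalized counts (SD, n = 3; log2 fold change -1.66, adjusted p by edgeR 6.59e-04), Slc40a1 (ferroportin) by -1.31 (adjusted p by edgeR 0.0362) and Fth1 (ferritin heavy chain) by -0.70 (adjusted p by edgeR 0.0086). Hmox1, the haem-degrading enzyme, had a log2 fold change of -0.14 (adjusted p by edgeR 0.202).

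Transcription factors known to act on scavenger receptor genes were 15, of which 4 were higher, 4 lower and 7 not past the threshold (median log2 fold change -0.06). Pparg, the nuclear receptor that acts on Cd36 and is needed by alveolar macrophages, rose from 871 ± 63 to 1346 ± 204 normalized counts (SD, n = 3; log2 fold change 0.64, adjusted p by edgeR 0.00736), while Cd36 did not pass. Ahr, Spic and Klf4 were higher by 2.00, 1.12 and 0.68 (adjusted p by edgeR 0.00709, 0.0225 and 0.00425). Maf was lower by -1.40 (adjusted p by edgeR 0.0124) and Nr1h3 (liver X receptor alpha), a sterol sensor with Cd5l among its known targets, by -0.80 (adjusted p by edgeR 0.0031). Whether the changes of Nr1h3 and Cd5l are linked was not tested. Spi1, which encodes PU.1, had a log2 fold change of -0.06 (adjusted p by edgeR 0.780).

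Of the 16 membrane and lysosomal partners 2 were higher, 1 lower and 13 not past the threshold (18.8% called, median log2 fold change 0.16). Tlr4, a signalling partner of CD36, rose from 1720 ± 214 to 3679 ± 143 normalized counts (SD, n = 3; log2 fold change 1.10, adjusted p by edgeR 0.00101), and Src, a kinase downstream of CD36, rose by 1.53 (adjusted p by edgeR 0.0132). Syk fell from 11579 ± 333 to 6205 ± 1446 (-0.90, adjusted p by edgeR 0.00818). Lamp1, the lysosomal membrane protein related to Cd68, was at 17554 ± 226 and 17545 ± 163 (log2 fold change -0.00, adjusted p by edgeR 0.999).

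**Figure D4:**
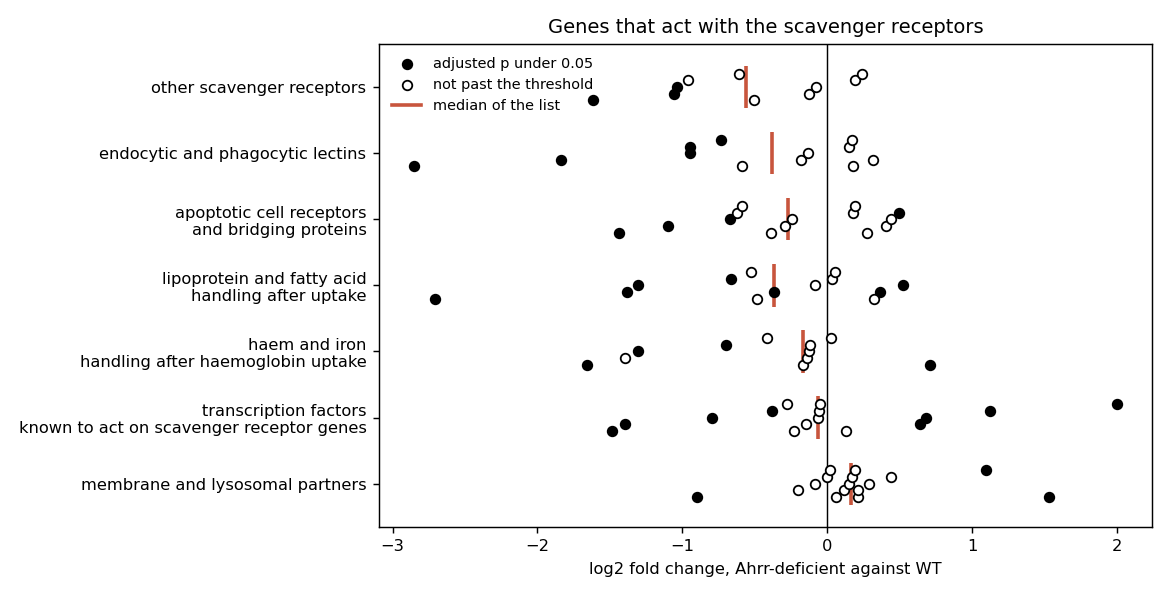
Log2 fold change (horizontal axis, Ahrr-deficient against WT) of each tested gene in the 7 lists of genes that act with the scavenger receptors; filled points passed an adjusted p by edgeR of 0.05 and red lines are list medians, from -0.56 for other scavenger receptors to 0.16 for membrane and lysosomal partners. All called points of the top pair of lists lie left of 0, and those of the transcription factors lie on both sides.

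For the 9 genes and the 7 lists, exons were compared with those of other annotated genes. Counts of some list genes named above are uncertain because the annotation has another gene on their exons and whether reads were counted by strand is not given in the sources used here: Ahr, Maf, Nr1h3, Pltp, Thbs1, Stab1, Cd9, Lamp1, Ly75 and Npc1. Clec4a1 and Fth1 have close copies in the genome. None of the 9 scavenger receptor genes has an exon that overlaps another annotated gene.

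Markers moved beside these results. Of 8 alveolar-like macrophage markers 3 were higher (Pparg, Itgax and Car4), 0 were called lower and 5 did not pass. Among those 5, Marco, Fabp4 and Ear2 had log2 fold changes below 0, of -0.51, -0.53 and -0.61 (adjusted p by edgeR 0.0765, 0.0878 and 0.102, unadjusted 0.0196, 0.0245 and 0.0316). Chil3 was below 0 too (-0.13, adjusted p by edgeR 0.420), with groups that did not overlap. Siglecf was above 0 (0.39, adjusted p by edgeR 0.196), with groups that overlapped. The summed normalized count of the 8 was 398376 to 429611 in WT and 362861 to 396036 in Ahrr-deficient libraries, most of it Chil3. Within the dendritic cell list Clec9a was higher (0.49, adjusted p by edgeR 0.0256). Its annotated position overlaps that of Clec1b. Clec9a had 1249, 349 and 366 counts in WT and 312, 3670 and 670 in Ahrr-deficient replicates 1, 2 and 3. Clec1b had 1190, 358 and 352 against 326, 3545 and 619. Whether these genes share reads was not tested, so Clec9a may not be a separate dendritic cell signal. Zbtb46 had a log2 fold change below 0 and did not pass (-0.32, adjusted p by edgeR 0.228), although its groups did not overlap. Xcr1 had too few counts to be tested, and Flt3, Ccr7 and Cd209a were not analysed here. The list summed to 597 to 716 in WT and 745 to 960 in Ahrr-deficient libraries, most of it Clec9a. The megakaryocyte list (2 of 5 genes measured, Itga2b lower) summed to at most 66.7, the neutrophil list to at most 27.8 and the fibroblast list, of which Pdgfra alone was measured, to at most 113. In the T and NK cell list Il7r alone was measured, at 357 to 886 in WT and 180 to 404 in Ahrr-deficient libraries, and Cd3e, Ncr1 and Nkg7 were not analysed here. The part of these differences in the scavenger receptor results was not tested.

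**Figure D5:**
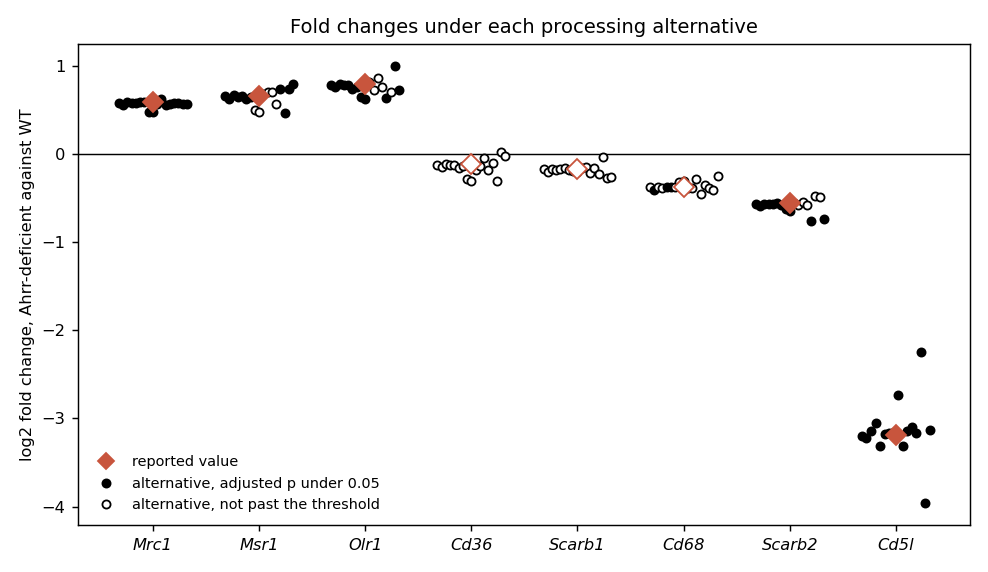
Log2 fold change (vertical axis, Ahrr-deficient against WT) of the 8 tested scavenger receptor genes as reported (red diamonds) and under each alternative analysis (circles, filled where the adjusted p was under 0.05). Mrc1 and Cd5l are filled throughout, Msr1, Olr1 and Scarb2 are partly open, and Cd36 is the only gene with a point above 0 (0.02) and points below it.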

How the data were processed

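Per the submitters' processing notes, reads were handled with CASAVA 1.8.2, fastp 0.20.0, STAR 2.7.10b, SAMtools 1.16.1, R 4.3.1 and DESeq2 1.40.2 on build mm10; the counting program and annotation are not given in the sources used here. Per the labels' protocols, libraries were made from 100 ng of RNA and read as single 75 bp reads. The authors deposited raw counts for 53465 features without identifiers, and a normalized signal (here called normalized count) with identifiers for 16111 genes. Multiplied by size factors, 100% of the deposited signal values gave whole reads (within 0.001 reads), and these recovered reads equalled the raw counts of all features with at least 10 counts, which joined identifiers to counts.

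Differences in counts were assessed by the edgeR 4.0.16 quasi-likelihood test (R 4.3.3, TMM scaling, filterByExpr, genotype as the only term), two-sided, with Benjamini-Hochberg adjustment over 11408 genes and a threshold of 0.05. Standard errors come from the fold change and the F statistic, and 95% intervals from these with the test's degrees of freedom. The fitting was tested on simulated data. Replicate libraries differed by more than sampling noise (chi-square per degree of freedom at least 5.79). Annotation was GENCODE mouse release 21 (GRCm38), with 16094 of 16111 genes found. Intervals and the floor of 3 counts cover counting error or library spread only, since reads carry no molecular identifiers. Alternatives were RLE and upper-quartile scaling, no filter, a minimum mean of 50 counts, DESeq2 1.42.0, voom in limma 3.58.1, the replicate number as a block, GC offsets (lowess span 0.3), both together, thinning, and leaving libraries out. Figures used matplotlib 3.10.9.

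The 9 genes, the lists, the tests and the alternatives were chosen with earlier results of these data known. Named are the 9 genes, up to 3 called genes in each direction per list, the 2 genes most like each tested gene, Ahrr, and others named after their values were seen (the list members given as not past the threshold, Pparg, Siglec1, Clec4e, Npc2, the markers and the chromosomal neighbours). A few genes that this rule names are not reported here.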

Additional observations from a re-analysis of the deposited data

How the results depend on the processing

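Across 17 alternatives 441 values were computed again, and in 353 neither the direction nor the call changed or, for counts, the move was within 1.5 times. The cause was not tested for the rest, except that fits with a library left out have fewer samples. Msr1 lost its call with GC offsets (log2 fold change 0.50, adjusted p by edgeR 0.0713) and with the replicate block with GC offsets (0.48, 0.0767; range over its alternatives 2.59e-07 to 0.0767). Cd68 gained a call with upper-quartile scaling (-0.41), DESeq2 (-0.38) and limma-voom (-0.38), and with none of the other alternatives. Cd36 turned to a log2 fold change of 0.0197 without Ahrr-deficient replicate 3 and was not called there (adjusted p by edgeR 0.941). With both libraries that stand apart left out, WT replicate 2 and Ahrr-deficient replicate 1, the calls of the 8 tested genes were as reported, with Msr1 at 0.79, Olr1 at 0.72 and Scarb2 at -0.73. That fit called 25.6% of all the genes it tested, more than the 19.6% of the reported fit.

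Leaving out 1 library gave log2 fold changes of 0.46 to 0.74 for Msr1, -0.31 to 0.02 for Cd36, -0.28 to -0.04 for Scarb1, -0.76 to -0.47 for Scarb2, -0.45 to -0.29 for Cd68, -3.96 to -2.24 for Cd5l, 0.55 to 0.63 for Mrc1 and 0.64 to 1.00 for Olr1. Of the 8 genes 1 to 3 were then called higher and 1 to 2 lower, and of all tested genes 327 to 1889 were called higher and 367 to 1968 lower, lowest without WT replicate 1 and highest without Ahrr-deficient replicate 1. By list, the range of calls higher and lower was 0 to 0 and 2 to 5 for other scavenger receptors, 0 to 1 and 4 to 6 for lectins, 1 to 3 and 3 to 6 for apoptotic cell receptors, 0 to 3 and 3 to 6 for lipid handling, 1 to 1 and 1 to 6 for haem and iron, 3 to 4 and 2 to 5 for transcription factors, and 1 to 4 and 1 to 1 for partners.

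The replicate numbers gave no sign of paired libraries: across genes, deviations from the group mean correlated between libraries of the same number at -0.169, 0.0714 and 0.129 for numbers 1, 2 and 3, and not every library correlated best with its own number. With so few libraries such correlations cannot decide whether cultures were paired. With the replicate block 666 genes were higher and 724 lower, against 1097 and 1135, and in lipid handling 1 was higher and 3 were lower. The calls of the 8 genes were unchanged by the block alone. With the block and GC offsets 634 were higher and 642 lower, and 0 genes of lipid handling and 0 of haem and iron were higher. Thinning to the smallest library gave 589 and 577, with 1 lipid gene higher, 2 transcription factors lower and 1 partner higher. RLE scaling, upper-quartile scaling and a mean of at least 50 counts each left 1 lipid gene higher. That minimum also removed Cd5l, so 1 of the remaining genes was called lower. With no filter 1 lectin was higher, 4 apoptotic cell genes were higher and 5 lower, and 5 haem and iron genes were lower. In DESeq2 and limma-voom 2 apoptotic cell genes were higher. Without both libraries that stand apart 5 other scavenger receptors were lower, 2 apoptotic cell genes higher and 6 lower, and 5 haem and iron genes lower. Among called genes 49.1% were higher as reported and 41.8% with upper-quartile scaling. Low counts limit Cd163, which was tested only without a filter (log2 fold change 1.50, adjusted p by edgeR 0.336), and the size of the Cd5l change.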

Other observations

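The tested genes within 250 kb of each scavenger receptor gene were looked at after the values were seen, and of all tested genes 19.6% were called. Scarb2, which was lower, had 5 tested neighbours, of which 3 were higher and 0 lower: Naaa, a lysosomal amidase (log2 fold change 0.81, adjusted p by edgeR 0.00711), Sdad1 (0.57, adjusted p by edgeR 0.0143) and Uso1 (0.33, adjusted p by edgeR 0.0237). Olr1 lies in a cluster of C-type lectin genes. Of its 8 tested neighbours Clec9a alone was called, and it was higher (0.49, adjusted p by edgeR 0.0256). The annotated positions of Clec9a and Clec1b overlap and their counts were similar in every library, so they may not be separate signals. Clec1b (0.49, adjusted p by edgeR 0.0523), Clec12a (0.32, adjusted p by edgeR 0.261), Clec1a (0.14, adjusted p by edgeR 0.685) and Clec7a (-0.08, adjusted p by edgeR 0.767) did not pass the threshold. Cd68 had 22 tested neighbours, with 3 higher and 2 lower, and Scarb1 had 6, with Aacs higher (0.72, adjusted p by edgeR 0.0181) and 0 lower. Mrc1, Cd5l and Cd163 had 3, 2 and 4 tested neighbours, of which edgeR called 0; at an unadjusted p under 0.05 there were 1, 0 and 1, and no other tool was read for them. Cd36 and Msr1 had 0 tested neighbours in that window.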
